A study of Mus musculus with 8 samples.

Results

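The 10 genes described here mark unipolar brush cells and neurons of the cerebellar nuclei, and were chosen by symbol: Eomes, Lmx1a, Calb2, Tbr1, Meis1, Slc17a6, Spp1, Nefh, Nefm and Nefl. They are 10 of 20352 genes measured and were read by 94 of 241576 probe sets. RNA came from whole cerebellum at 28 days of age, in 4 samples of the Cic-L-null genotype and 4 wild-type samples, all on a mixed Swiss Webster (CD-1) background, measured with 1 array per sample (Affymetrix Mouse Gene 1.0 ST). Whether a sample is 1 animal or a pool is not given in the sources used here, so p-values measure the spread between these samples. Cic encodes Capicua, a transcriptional repressor that partners ataxin-1. The comparison asks which transcripts differ between Cic-L-null and wild-type cerebellum. The mutation is not limited to a cell type by anything in the labels, and the cerebellum was not dissected into layers or nuclei. In such bulk RNA, fewer cells of a type and less RNA per cell cannot be told apart.

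Unipolar brush cells are excitatory interneurons of the granular layer that are most abundant in the vestibulocerebellum and amplify mossy fibre input. They and the large glutamatergic projection neurons of the cerebellar nuclei both descend from the rhombic lip, the first keeping the T-box factor Eomes (Tbr2) in adult life, the second passing through a stage marked by Tbr1 and Meis factors. The projection neurons carry the output of the cerebellum, use the vesicular glutamate transporter encoded by Slc17a6, and have thick axons filled with neurofilaments. Several of the 10 genes are not exclusive to these cells: Calb2 and Meis1 are also active in granule cells, neurofilament genes in Purkinje cells and basket cells, and Spp1 in macrophages and other cells outside the nuclei.

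All values are log2 expression values, and every difference is Cic-L-null minus wild-type. A gene value is the mean over the probe sets annotated with that symbol alone. Of the 10 genes, 9 had a mean over the arrays above 6.21, the limit for dim genes set by the 95th percentile of 967 olfactory receptor genes, which cerebellum is not known to use. Tbr1 lay below it at 5.86, so the label of nuclear neurons does not rest on Tbr1 in these data. Of the granule cell markers and Purkinje cell markers, 8 of 8 measured in each list were above the limit, whereas 2 of 12 brainstem markers and 3 of 6 forebrain markers were above it.

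Cic was lower in every mutant, with 7.54 ± 0.061 in Cic-L-null and 8.78 ± 0.28 in wild-type cerebellum (SD, n = 4 each). The mean of the mutants still lay above the dim limit of 6.21, so Cic signal was reduced and not absent. Trizol and RNeasy are named as extraction reagents for wild-type replicate 1 alone. This array also had the lowest weight in the array weighting of limma, at 0.444 where the others lay between 0.673 and 1.69. Whether extraction takes part in that weight was not tested. Y-linked genes were high in 3 of 4 Cic-L-null and 2 of 4 wild-type arrays.

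The 10 genes went both ways, 5 higher and 5 lower in the mutants. Eomes was the highest difference at 0.47 and Spp1 the lowest at -0.41, and these were the members whose groups did not overlap. No member passed the test over all genes, in which 28 genes (0.138%), 18 higher (0.0884%) and 10 lower (0.0491%) in the mutants, had an adjusted p under 0.05 with limma, a moderated linear model with Benjamini-Hochberg adjustment. At an unadjusted p under 0.05 there were 3 of 10 members, Eomes, Spp1 and Nefl, against 9.26% of all genes. Groups that did not overlap were seen for 2 of 10 members, against 5.94% of all genes. The median of the 10 differences was 0.018, where that of all genes was -0.0071. The genes were chosen with earlier results of these data known, so these counts describe the list and give no separate support to it.

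**Figure D1:**
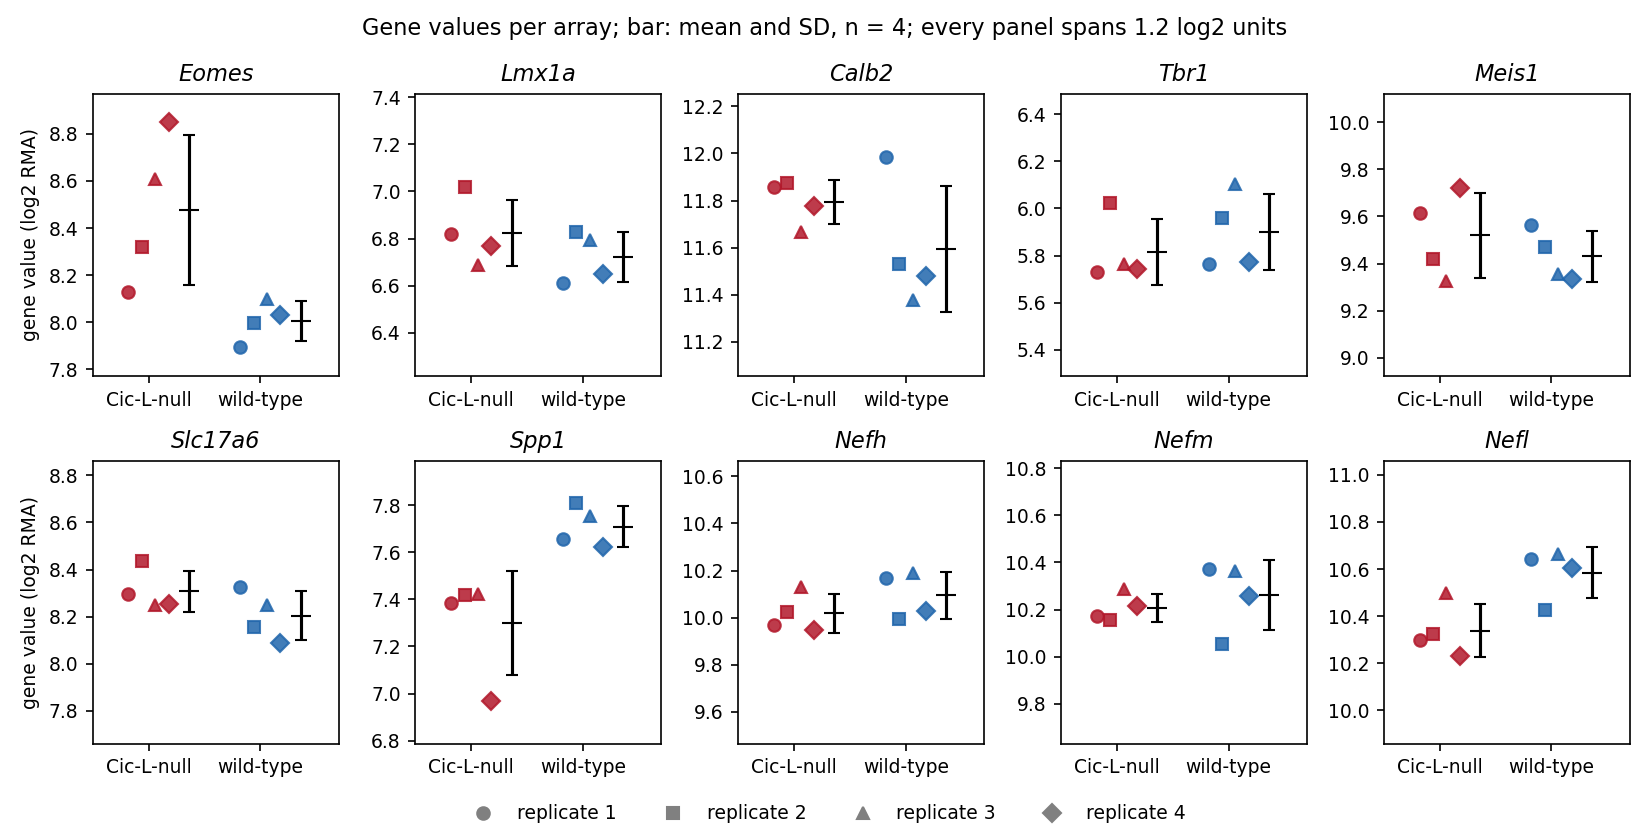
Gene values (log2 RMA, vertical axis) of the 10 genes on each array, Cic-L-null left of wild-type, with the mean and SD of each group (n = 4). Eomes lies higher and Spp1 lower in all 4 Cic-L-null arrays than in all 4 wild-type arrays, and the groups of the other 8 genes overlap.

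The promoters of Eomes and Spp1 are shown because these are the members whose groups did not overlap and because Capicua is a DNA-binding repressor. Both are RefSeq sequences of build GRCm38.p6, the 250 bases before the annotated start on the plus strand, at chr9:118477939-118478188 for Eomes and chr5:104434861-104435110 for the upstream of 2 Spp1 starts. Capitals mark matches to a TATA box, for which both strands were searched for the word TATAAAA, the word TATAAAT, the word TATATAA and the word TATATAT, and overlapping matches run together.
Eomes: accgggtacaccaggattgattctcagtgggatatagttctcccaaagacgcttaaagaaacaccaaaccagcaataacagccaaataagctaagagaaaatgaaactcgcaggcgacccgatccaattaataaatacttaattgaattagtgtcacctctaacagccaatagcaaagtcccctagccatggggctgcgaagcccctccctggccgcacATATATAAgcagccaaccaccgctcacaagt
Spp1: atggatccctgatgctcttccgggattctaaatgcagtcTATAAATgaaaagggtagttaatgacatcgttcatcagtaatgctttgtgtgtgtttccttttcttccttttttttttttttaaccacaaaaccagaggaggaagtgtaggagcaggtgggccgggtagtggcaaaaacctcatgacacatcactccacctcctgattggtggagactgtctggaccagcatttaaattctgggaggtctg
The TATA match of Eomes began 31 bases before the start, and that of Spp1 began 211 bases before it. Motifs were searched in RefSeq windows of 300 bases, 250 before and 50 from the annotated start on. A TATA match was found in 2 of 8 such windows of the members and in 12.5% of all 32851 windows. The Capicua octamer, searched on both strands as the word TGAATGAA, the word TGAATGGA, the word TCAATGAA and the word TCAATGGA, was found in 0 of the 8 windows, which cover 6 of the 10 genes, and in 3.84% of all windows. This says only that these letters are not in those windows.

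Of the unipolar brush cell genes, Eomes encodes the T-box factor that these cells keep into adult life. Its gene value was 8.13, 8.32, 8.61 and 8.85 in Cic-L-null replicates 1 to 4, against 7.89, 7.998, 8.10 and 8.03 in wild-type replicates 1 to 4. All 4 mutant arrays lay above all 4 wild-type arrays, but the lowest mutant and the highest wild-type array were close, and the mutants spread more widely. The means were 8.48 ± 0.32 in Cic-L-null and 8.005 ± 0.085 in wild-type cerebellum (SD, n = 4 each), a difference of 0.47 (SE 0.13) or 1.39-fold. The adjusted p over all genes was 0.266 with limma, and the exact two-sided permutation p of this gene was 0.0286, the smallest that 4 against 4 can give. Every gene whose groups do not overlap reaches this permutation p, so it only restates the lack of overlap, seen in 5.94% of all genes. Without Cic-L-null replicate 4 the difference was 0.35 (SE 0.11, adjusted p = 0.495 with limma), and without Cic-L-null replicate 1 it was 0.59 (SE 0.11, adjusted p = 0.148 with limma).

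Eomes was read by 9 probe sets, of which 8 had a higher mean in the mutants. These probe sets read the same RNA and are not replicates of each other. Probe set 10589998 had the highest difference, with 8.04, 7.77, 8.28 and 8.62 in Cic-L-null against 7.76, 7.32, 7.03 and 7.49 in wild-type arrays. The groups of this probe set did not overlap, although Cic-L-null replicate 2 and wild-type replicate 1 nearly met, and the difference was 0.78 (SE 0.21).
Probe set 10590000 gave 9.42, 9.48, 9.77 and 9.98 in Cic-L-null against 8.99, 8.95, 9.17 and 9.34 in wild-type arrays, a difference of 0.55 (SE 0.15). Probe set 10590001 gave 8.06, 8.28, 8.55 and 9.05 in Cic-L-null against 7.75, 7.51, 8.01 and 8.05 in wild-type arrays, a difference of 0.66 (SE 0.22). In both, as in the gene value, Cic-L-null replicates 3 and 4 were the highest arrays.

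The groups of the other 6 Eomes probe sets overlapped. Probe sets 10589995, 10590002, 10589997, 10590003 and 10589999 had differences of 0.54 (SE 0.30), 0.52 (SE 0.19), 0.48 (SE 0.22), 0.43 (SE 0.19) and 0.29 (SE 0.16). Probe set 10589996 differed by -0.012 (SE 0.23), with means of 5.99 in Cic-L-null and 6.003 in wild-type, below the dim limit for probe sets of 6.29. Over all 9 the median difference was 0.52. Tested among all probe sets the smallest adjusted p was 0.560 with limma, and in that test 1 of 241576 probe sets (0.000414%) had an adjusted p under 0.05, none of them among the 94 described here.

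**Figure D2:**
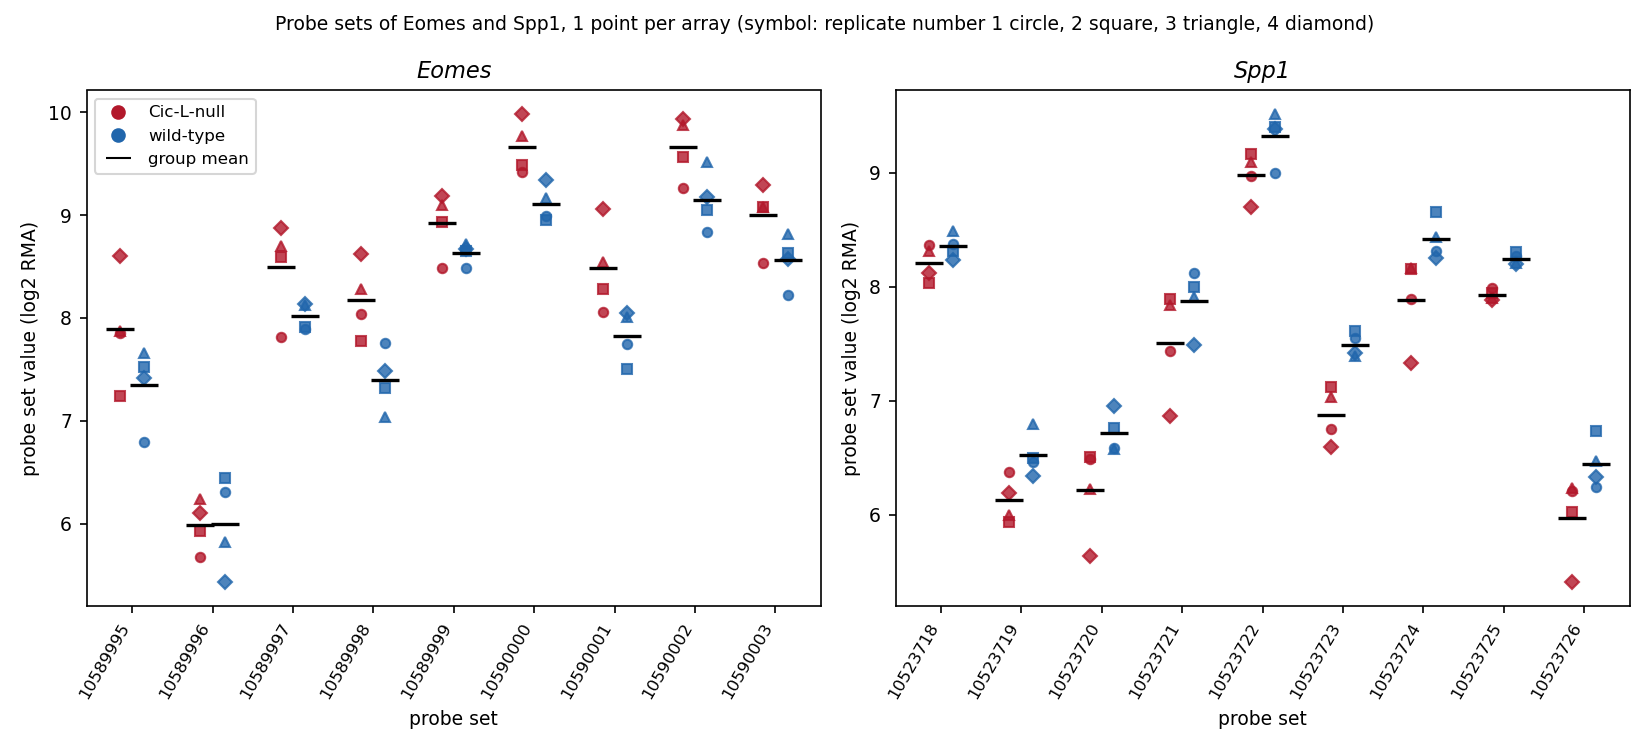
Probe set values (log2 RMA, vertical axis) of the 9 probe sets of Eomes and the 9 of Spp1, 1 point per array, with Cic-L-null left of wild-type in each pair and the group mean as a black bar. The means of 8 Eomes probe sets lie higher in Cic-L-null, and those of all 9 Spp1 probe sets lie lower.

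Lmx1a, a LIM homeodomain factor of the rhombic lip and of unipolar brush cells, overlapped between the groups. It gave 6.82, 7.02, 6.69 and 6.77 in Cic-L-null against 6.61, 6.83, 6.79 and 6.65 in wild-type arrays. The groups overlapped, with wild-type replicates 1 and 4 below every mutant, and the difference of 0.10 (SE 0.083) had an adjusted p of 0.788 with limma. Of its 11 probe sets, 6 lay above the dim limit, and the differences ran between -0.29 for probe set 10351445 and 0.42 for probe set 10351446.

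Calb2 encodes calretinin, an EF-hand calcium-binding protein of unipolar brush cells and, in rodents, also of granule cells. Its values were 11.86, 11.88, 11.67 and 11.78 in Cic-L-null against 11.98, 11.53, 11.38 and 11.48 in wild-type arrays. Wild-type replicate 1 was the highest of all 8 arrays, whereas the other wild-type arrays lay below every mutant. The difference was 0.20 (SE 0.12, adjusted p = 0.679 with limma) over all arrays. Without wild-type replicate 1 it was 0.33 (SE 0.071, adjusted p = 0.120 with limma), and the groups then did not overlap, as in 13.6% of all genes without that array. All 9 probe sets had a higher mean in the mutants, between 0.046 for probe set 10581661 and 0.29 for probe set 10581655.

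The 3 genes thus had differences above 0, and in none did the difference pass over all genes. Deviations of the arrays from their group means did not run together among them: as a description over 8 arrays, r was -0.29 between Eomes and Lmx1a, -0.44 between Eomes and Calb2 and -0.15 between Lmx1a and Calb2 (rho -0.40, -0.64 and 0.12; without the 2 farthest arrays r = -0.42, -0.78 and -0.41).

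Other genes of unipolar brush cell signalling, by which glutamate acts through metabotropic receptors and phospholipase C, did not pass. Of the list, which includes Eomes, Lmx1a and Calb2, 7 of 10 genes were measured, with 4 above 0, 3 below and 0 called. Eomes, Lmx1a and Calb2 were 3 of the 4 above 0, and the 3 below were all other genes. Plcb1, a phospholipase C gene, had means of 9.44 in Cic-L-null and 9.68 in wild-type, a difference of -0.25 (SE 0.087; limma adjusted p = 0.378) with overlapping groups. Rhombic lip factors showed 2 of 10 measured members above 0 and 8 below, 0 called, with a median of -0.042. Those with the smallest unadjusted p were Olig3 at -0.20 (SE 0.11), Pax6, a paired homeodomain factor of granule cells and unipolar brush cells, at 0.084 (SE 0.058), and Atoh1, the proneural factor of the rhombic lip, at -0.087 (SE 0.087). Olig3 and Atoh1 lay below the dim limit. The T-box relatives of Eomes had 0 of 4 members above 0, with Tbx21 at -0.081 (SE 0.087), Tbx3 at -0.062 (SE 0.068) and Tbx2 at -0.066 (SE 0.10). Of these 4 relatives, Tbx21 and Tbx20 lay below the dim limit.

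Of the nuclear neuron genes, Spp1 encodes osteopontin, a secreted phosphoprotein that binds integrins and CD44. Its gene value was 7.39, 7.42, 7.42 and 6.97 in Cic-L-null replicates 1 to 4, against 7.66, 7.81, 7.75 and 7.62 in wild-type replicates 1 to 4. All mutants lay below all wild-type arrays, and Cic-L-null replicate 4 stood apart below the other mutants. The means were 7.30 ± 0.22 in Cic-L-null and 7.71 ± 0.086 in wild-type cerebellum (SD, n = 4 each), a difference of -0.41 (SE 0.10) or 1.33-fold lower. The adjusted p was 0.194 over all genes with limma. The exact two-sided permutation p of this gene was 0.0286, which, as for Eomes, only restates that the groups did not overlap. Without Cic-L-null replicate 4 the difference was -0.30 (SE 0.067, adjusted p = 0.267 with limma).

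Each of the 9 Spp1 probe sets averaged lower in Cic-L-null than in wild-type arrays, with a median of -0.40, and the groups of 5 did not overlap, where 4.3% of all probe sets had groups that did not. Probe set 10523723 had the lowest difference, with 6.75, 7.11, 7.03 and 6.59 in Cic-L-null against 7.55, 7.61, 7.39 and 7.41 in wild-type arrays, at -0.62 (SE 0.13). Probe set 10523725 had narrow groups, with 7.99, 7.95, 7.90 and 7.88 in Cic-L-null against 8.27, 8.31, 8.20 and 8.19 in wild-type arrays, and differed by -0.31 (SE 0.077). In this probe set Cic-L-null replicate 4 did not stand apart from the other mutants.
Probe sets 10523724, 10523720 and 10523726 also had groups that did not overlap, with differences of -0.53 (SE 0.20), -0.50 (SE 0.20) and -0.48 (SE 0.20), and in each of them Cic-L-null replicate 4 was the lowest array, at 7.33, 5.64 and 5.41. Probe set 10523726 lay below the dim limit. Groups overlapped for probe sets 10523719, 10523721, 10523722 and 10523718, which differed by -0.40 (SE 0.14), -0.37 (SE 0.24), -0.34 (SE 0.15) and -0.15 (SE 0.11). The smallest adjusted p of the 9 was 0.434 with limma.

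Spp1 is also used by macrophages, so markers of these and of glia and vessels are given beside it. Of 8 activated microglia and macrophage markers, 6 were above 0 and 2 below, 0 called. Their summed level (log2 of the sum) ran from 10.45 to 10.65 in Cic-L-null and from 10.30 to 10.53 in wild-type arrays, with Lpl, Itgax and Clec7a below the dim limit. Lyz2, Cd68 and Cd9 differed by 0.15 (SE 0.082), 0.17 (SE 0.095) and 0.18 (SE 0.11). Of 8 microglia markers, 4 were above and 4 below 0, 0 called, with a median of -0.015. C1qa differed by 0.14 (SE 0.069), Itgam by -0.086 (SE 0.087) and Aif1 by -0.079 (SE 0.10). The summed level of the microglia markers ran from 10.34 to 10.46 in Cic-L-null and from 10.34 to 10.41 in wild-type arrays. P2ry12 and Aif1 were below the dim limit. Of the markers whose summed level did not overlap between the groups, all 7 of Bergmann glia and astrocytes were lower in the mutants, 1 of them called (12.91 to 12.97 in Cic-L-null, 13.10 to 13.28 in wild-type). This called gene was Fabp7 at -1.17 (SE 0.14), and Gdf10 and S100b differed by -0.33 (SE 0.073) and -0.36 (SE 0.090). All 6 measured markers of mature oligodendrocytes were lower, 0 called (13.16 to 13.27 in Cic-L-null, 13.34 to 13.41 in wild-type), with Mobp at -0.30 (SE 0.060) and Cldn11 at -0.21 (SE 0.057). Endothelial markers were lower in 4 of 5, 0 called (11.21 to 11.36 in Cic-L-null, 11.39 to 11.52 in wild-type), with Itm2a at -0.39 (SE 0.090) and Cldn5 at -0.27 (SE 0.070). The part of these cells in the difference of Spp1 was not tested.

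Receptors of osteopontin and its relatives in mineralised matrix had 4 of 11 members above 0 and 7 below, 0 called, with a median of -0.035. Cd44, its hyaluronan-binding receptor, differed by -0.14 (SE 0.075), and the integrin genes Itgb3 and Itga5 by -0.12 (SE 0.067) and 0.15 (SE 0.086).

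Slc17a6 encodes VGLUT2, which loads glutamate into synaptic vesicles of nuclear projection neurons. Its gene value was 8.30, 8.44, 8.25 and 8.25 in Cic-L-null against 8.33, 8.16, 8.25 and 8.09 in wild-type arrays. The groups overlapped, and the difference was 0.10 (SE 0.071, adjusted p = 0.735 with limma). The gene value joined probe sets that ran in opposite directions. Probe set 10553503 gave 6.29, 5.95, 6.69 and 6.34 in Cic-L-null against 7.62, 7.58, 8.10 and 7.89 in wild-type arrays, so that every mutant lay far below every wild-type array. Its difference was -1.48 (SE 0.18, adjusted p = 0.135 with limma), the lowest of the 94, and 0.0882% of all probe sets differed by at least as much in either direction.

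Of the other 13 Slc17a6 probe sets, 11 were higher and 2 lower in the mutants, with a median of 0.31. Probe set 10553508 had the highest difference, with 9.52, 9.71, 9.55 and 9.38 in Cic-L-null against 9.29, 9.03, 8.94 and 8.79 in wild-type arrays, at 0.53 (SE 0.13). The groups of 3 of the 13 did not overlap, each of them higher in the mutants, against 4.3% of all probe sets. With probe set 10553503 left out, a setting chosen after seeing the values, the gene value was 8.46 ± 0.12 in Cic-L-null and 8.24 ± 0.12 in wild-type cerebellum (SD, n = 4 each). The difference then was 0.23 (SE 0.079, adjusted p = 0.377 with limma), and Cic-L-null replicate 3 still overlapped wild-type replicate 1. Slc17a6 is the 1 member on chromosome 7, the chromosome of Cic, and the stretch of the transcript read by each probe set is not given in the sources used here. Whether sequence carried along with the altered Cic allele takes part in the values of probe set 10553503 was not tested.

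**Figure D3:**
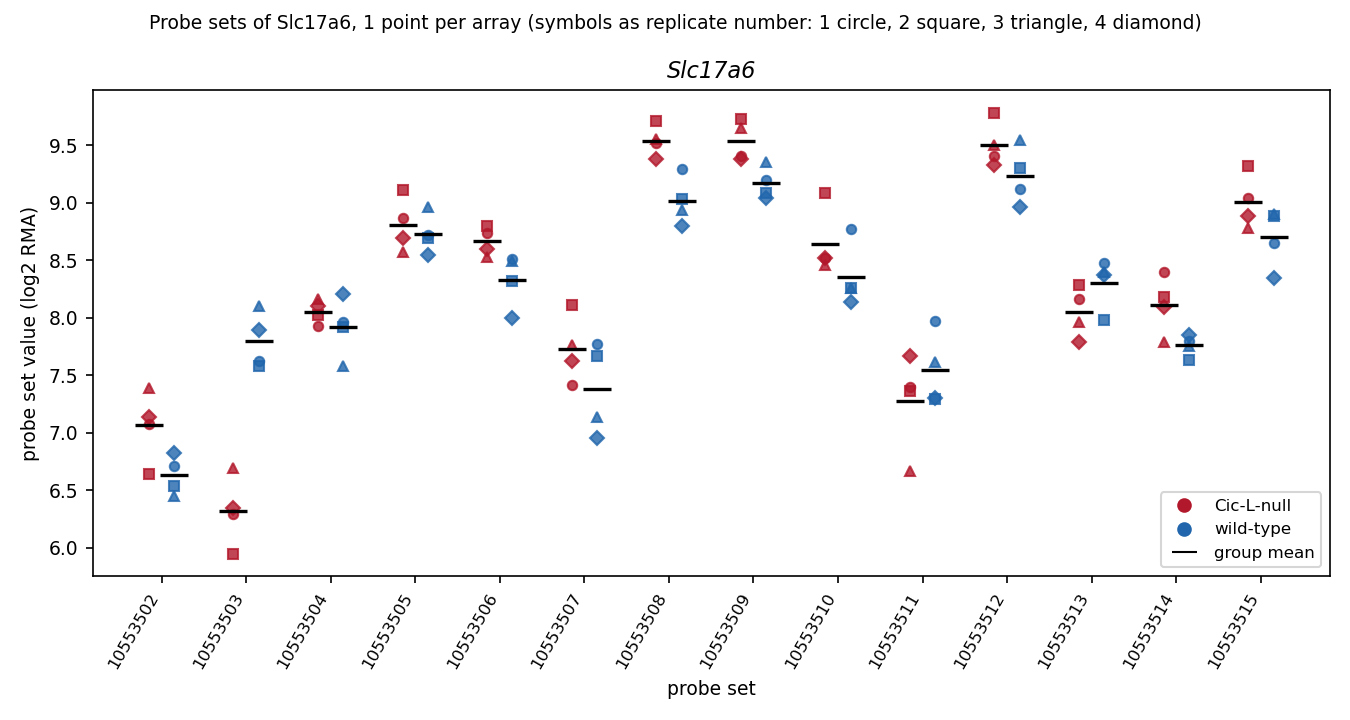
Probe set values (log2 RMA, vertical axis) of the 14 probe sets of Slc17a6, 1 point per array, Cic-L-null left of wild-type, with the group mean as a black bar. Probe set 10553503 lies lower in all 4 Cic-L-null arrays, whereas 11 of the other 13 have a higher mean there.

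Meis1, a TALE homeodomain factor of nuclear neurons and granule cells, gave 9.61, 9.42, 9.33 and 9.72 in Cic-L-null against 9.57, 9.47, 9.36 and 9.33 in wild-type arrays. The groups overlapped across their range, with a difference of 0.088 (SE 0.093; limma adjusted p = 0.854). Its 17 probe sets ran between -0.24 (SE 0.65) for probe set 10384512, where Cic-L-null arrays lay between 6.85 and 9.32 and wild-type arrays between 7.72 and 9.08, and 0.43 (SE 0.15) for probe set 10384516. The TALE partners of Meis1 had 2 of 6 members above 0 and 4 below, 0 called, with Meis3 at -0.073 (SE 0.060) and Pbx2 at 0.063 (SE 0.058).

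Tbr1, a T-box factor of developing projection neurons, gave 5.73, 6.02, 5.76 and 5.74 in Cic-L-null against 5.77, 5.96, 6.10 and 5.77 in wild-type arrays. These values lay below the dim limit in both groups, and the groups overlapped, with a difference of -0.085 (SE 0.095; limma adjusted p = 0.864). Of its 7 probe sets 1 lay above the dim limit, probe set 10472320, which differed by 0.18 (SE 0.21). The lowest difference was that of probe set 10472317 at -0.42 (SE 0.22).

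Other factors and transmitter genes of nuclear neurons had 4 of 12 members above 0 and 8 below, 0 called, with a median of -0.047. Kcng4, a modifying potassium channel subunit gene, had means of 9.10 in Cic-L-null and 9.30 in wild-type, a difference of -0.20 (SE 0.065; limma adjusted p = 0.347). Adcyap1, the gene of the neuropeptide PACAP and below the dim limit, differed by 0.25 (SE 0.22), and Dmrta2 by -0.12 (SE 0.12). Of the vesicular glutamate transporters, Slc17a7, that of granule cells, had means of 11.69 in Cic-L-null and 11.56 in wild-type, a difference of 0.13 (SE 0.059; limma adjusted p = 0.543), with groups that did not overlap, and Slc17a8 differed by -0.039 (SE 0.095). The EF-hand relatives of Calb2 gave no call, with Scgn, below the dim limit, at -0.037 (SE 0.11) and Pvalb at 0.012 (SE 0.054).

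The neurofilament genes encode the heavy, medium and light subunits that assemble together into the filaments of large axons. Nefl, the light subunit on which assembly depends, gave 10.30, 10.33, 10.50 and 10.23 in Cic-L-null against 10.64, 10.43, 10.66 and 10.60 in wild-type arrays. The other mutants lay below every wild-type array, but Cic-L-null replicate 3 lay above wild-type replicate 2. The means were 10.34 ± 0.11 in Cic-L-null and 10.58 ± 0.11 in wild-type cerebellum (SD, n = 4 each), a difference of -0.25 (SE 0.077) or 1.19-fold lower. The adjusted p was 0.318 over all genes with limma, and the exact two-sided permutation p of this gene was 0.0571. All 5 probe sets were lower in the mutants, between -0.31 (SE 0.092) for probe set 10416179 and -0.16 (SE 0.11) for probe set 10416177.

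Nefh, the heavy subunit, gave 9.97, 10.02, 10.13 and 9.95 in Cic-L-null against 10.17, 9.99, 10.19 and 10.03 in wild-type arrays. Nefm, the medium subunit, gave 10.17, 10.15, 10.29 and 10.22 in Cic-L-null against 10.37, 10.05, 10.36 and 10.26 in wild-type arrays. In both genes wild-type replicate 2 was lowest of its group and the groups overlapped. Their differences were -0.077 (SE 0.069) for Nefh and -0.053 (SE 0.078) for Nefm, with adjusted p of 0.818 and 0.901 with limma. The probe sets of Nefh ran between -0.23 for 10383926 and 0.14 for 10383928, and those of Nefm between -0.10 for 10421102 and 0.030 for 10421103.

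The 3 subunit genes varied together between arrays of the same group. As a description over 8 arrays, deviations from the group means correlated with r = 0.89 between Nefh and Nefl, 0.82 between Nefm and Nefl and 0.80 between Nefh and Nefm (rho 0.93, 0.74 and 0.67; without the 2 farthest arrays r = 0.78, 0.71 and 0.72). Wild-type replicate 2 was low and Cic-L-null replicate 3 high in all 3 genes within their groups. Lmx1a and Tbr1 also varied together, with r = 0.85 (rho 0.71, and r = 0.77 without the 2 farthest arrays). Over all pairs of members the lowest r was -0.64, between Eomes and Spp1, and it was 0.11 without the 2 farthest arrays. The values of a pair share the array and its RNA, so part of a correlation can belong to the array.

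Related genes gave no call. Of the other intermediate filaments of neurons, 2 of 4 were above 0 and 2 below, with Ina, which joins neurofilaments in central axons, at 0.042 (SE 0.085), Prph, a filament gene of peripheral and brainstem neurons, at -0.061 (SE 0.088) and Nes at 0.071 (SE 0.13). Of 10 kinases, linkers and transport genes of neurofilaments, 4 were above and 6 below 0. Cdk5, a kinase that phosphorylates the neurofilament tails, had means of 10.08 in Cic-L-null and 10.20 in wild-type, a difference of -0.13 (SE 0.056; limma adjusted p = 0.527) with groups that did not overlap. Gsk3b and Mapk8, which also act on these tails, differed by 0.11 (SE 0.072) and 0.082 (SE 0.057).

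**Figure D4:**
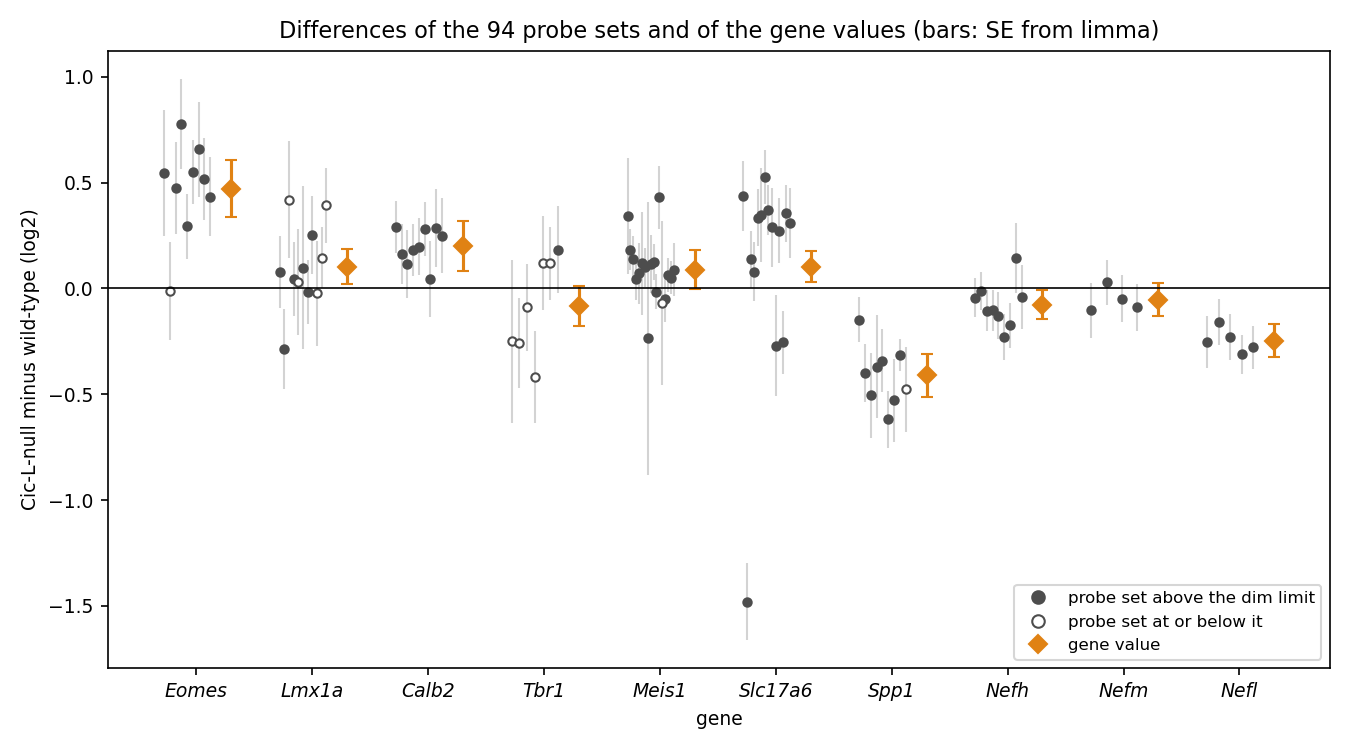
Differences of Cic-L-null minus wild-type (log2, vertical axis) for the 94 probe sets of the 10 genes, with the gene value as a diamond and the SE as bars. Open circles are probe sets at or below the dim limit. Probe sets of Eomes, Calb2, Spp1 and Nefl lie almost all on 1 side of 0, whereas those of Slc17a6 run from -1.48 to 0.53.

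Over the 94 probe sets, 14 had groups that did not overlap, 7 higher and 7 lower in the mutants, against 4.3% of all probe sets. There were 22 that had an unadjusted p under 0.05 where 6.8% of all probe sets did. Of the 14, 5 belonged to Spp1, 4 to Slc17a6, 3 to Eomes, 1 to Meis1 and 1 to Nefl. Probe sets of a gene share its RNA, so such counts describe genes and not separate events.

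Neurons that carry several of these genes too showed no call in their marker lists. Of the granule cell markers 5 of 8 were above 0, with a median of 0.044 and a summed level from 14.90 to 14.92 in Cic-L-null and from 14.81 to 14.93 in wild-type arrays. Purkinje cell markers were above 0 in 5 of 8 and below in 3, with a median of 0.029. Their summed level ran from 14.24 to 14.29 in Cic-L-null and from 14.20 to 14.35 in wild-type arrays. Cacna1g differed by 0.19 (SE 0.061), Pcp4 by -0.084 (SE 0.069) and Pcp2 by 0.12 (SE 0.11). Markers of molecular layer interneurons and Golgi cells were above 0 in 5 of 8 and below in 3. Gad1 differed by 0.13 (SE 0.058), Sorcs3 by 0.14 (SE 0.085) and Gad2 by -0.062 (SE 0.064). Brainstem markers had 5 of 12 above 0, with Tph2 at 0.34 (SE 0.096), below the dim limit, and Hoxb3 at -0.31 (SE 0.091). Their summed level ran from 9.57 to 9.64 in Cic-L-null and from 9.49 to 9.72 in wild-type arrays, and these ranges overlapped. Brainstem nuclei also use Slc17a6, Spp1 and neurofilaments, and their part in the values was not tested. Choroid plexus markers had 2 of 8 above 0, 0 called, with Kl at -0.45 (SE 0.20) and a summed level from 11.45 to 13.03 in Cic-L-null and from 12.44 to 12.88 in wild-type arrays. Meningeal and fibroblast markers had 1 of 6 above 0, 0 called. Igf2, whose groups did not overlap, differed by -0.22 (SE 0.068), Col1a1 by -0.24 (SE 0.079) and Dcn by 0.10 (SE 0.068). Their list had a summed level from 10.96 to 11.16 in Cic-L-null and from 11.06 to 11.22 in wild-type arrays. Forebrain markers had 0 of 6 above 0, 0 called, with Neurod6 at -0.25 (SE 0.10), below the dim limit.

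By within-group deviations over the 8 arrays, the genes most like Eomes among 13993 genes above the dim limit were Zfp787 (r = 0.96), Wdfy1 (0.95) and Rbm20 (0.95), and those most like Spp1 were Ang (0.98), Hdlbp (0.96) and Tbx2 (0.96). Their own differences were 0.012 (SE 0.066), -0.0042 (SE 0.21) and -0.080 (SE 0.079) for the first set and -0.11 (SE 0.085), -0.090 (SE 0.058) and -0.066 (SE 0.10) for the second, none called. With 8 arrays, 19 genes reached r above 0.9 with Eomes and 45 with Spp1. As strong an r of the opposite sign was reached by 43 genes with Eomes and 45 with Spp1. Spp1 stood apart in Cic-L-null replicate 4, at 6.97 where the other mutants lay between 7.39 and 7.42. Tbx2 was also lowest in that array, at 6.76 where the other mutants lay between 7.07 and 7.24. No r without the farthest arrays is given for these genes, so how far likeness to Spp1 rests on that array was not tested. Such likeness is a description with no test.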

How the data were processed

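The members and gene lists were chosen with earlier results of these data known. Samples were grouped by their titles, 4 Cic-L-null and 4 wild-type. The deposited table holds log2 values made by the authors with RMA. Their processing notes, per the labels, name Affymetrix Power Tools, with neither its version nor a build stated in what was used here. RMA normalises all arrays to a common distribution, so a difference is relative to the other probe sets. The table has 241576 probe sets with 0 missing values. Symbols came from a platform annotation of the array, which is old: 212097 probe sets carried 1 symbol, 4475 several and 25004 none, and symbols were updated through the gene table of GRCm38.p6, which was also used for chromosomes. Single-symbol probe sets were averaged into 20352 genes. Array data have no read depth, and the number of arrays limits the precision.

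Differences were tested with limma 3.58.1 in R 4.3.3 (lmFit, eBayes without trend, two-sided, Benjamini-Hochberg over all genes or all probe sets), called at an adjusted p under 0.05, with no filter. The fit was tested on simulated data with genes drawn independently of each other. That check covered false calls and changes larger than any gene difference of the 10 members. The exact permutation test used all 70 splits of the 8 arrays. Named genes are the 10 members, all probe sets of Eomes and Spp1, the highest and lowest probe set of the others, up to 3 genes per list with the smallest p, the 3 genes most like Eomes and Spp1, and Cic. Alternatives were the combination of probe sets, filters on dim values, normalisation, variance model, array weights, the replicate number as a block, Y-linked genes as a covariate (Kdm5d, Eif2s3y and Uty), the threshold and each array left out. Genes on the lists that no single-symbol probe set reads are not analysed here.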

Additional observations from a re-analysis of the deposited data

Results flagged for a closer look

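In groups of 4, an array is set apart here where its gap to the nearest of the others relative to the group's range exceeds Dixon's 95% critical value. This was applied to 88 groups of values, and chance alone sets apart about 1 in 20 groups. Spp1 in Cic-L-null replicate 4 was 6.97, where the other mutants lay between 7.39 and 7.42, a gap of 0.92 of the range. Tbr1 in Cic-L-null replicate 2 was 6.02, where the other mutants lay between 5.73 and 5.76, a gap of 0.88 of the range, with all values below the dim limit.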

How the results depend on the processing

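Of 189 values of the 10 differences under the alternatives, 0 passed an adjusted p under 0.05 with limma and 2 changed sign: Tbr1 at 0.18 with only the probe sets above the dim limit, which leaves it 1 probe set, and Nefm at 0.0066 with array weights. The dim gene filter gave no value for Tbr1. This filter, the variance models, the unmoderated test, the replicate block and the looser threshold leave a difference itself unchanged. A change of sign could therefore not arise in those settings. The differences ran from 0.35 to 0.59 for Eomes, -0.45 to -0.30 for Spp1, 0.13 to 0.33 for Calb2 and -0.30 to -0.20 for Nefl, with adjusted p from 0.148 to 0.511, 0.0952 to 0.730, 0.120 to 0.892 and 0.121 to 0.647. The lowest adjusted p of Spp1 came with trended, robust variances. Slc17a6 was 0.23 (adjusted p = 0.377) without probe set 10553503, added after seeing the data. With each array left out the ranges were 0.037 to 0.15 for Lmx1a, -0.15 to -0.017 for Tbr1, 0.022 to 0.15 for Meis1, 0.061 to 0.14 for Slc17a6, -0.11 to -0.045 for Nefh and -0.12 to -0.016 for Nefm.

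The count of 2 members with groups that do not overlap was 0 with the median of probe sets (5.11% of all genes) and 1, Spp1, after a further quantile normalisation (6.93%), and 2 to 3 with each array left out (7.72% to 13.6%). The 28 genes called became 2 with the median of probe sets, 69 above the dim limit, 130 under a variance model with trend and robust fit, 54 with array weights, 18 with the covariate of Y-linked genes, 0 with unmoderated tests, 0 with the replicate block, 96 at an adjusted p under 0.10, and 0 to 37 with each array left out. Leaving out Cic-L-null replicates 1, 2 and 4 gave 7, 0 and 3 genes, and leaving out wild-type replicates 2, 3 and 4 gave 3, 3 and 5. The 1 probe set called became 4 after a further quantile normalisation or centring, 71 under that variance model, 0 without moderation, 0 with the replicate block, 0 with the covariate, 6 at an adjusted p under 0.10, and 0 to 3 with each array left out. The cause of these moves was not tested.

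Whether replicate numbers pair the samples could not be told from the values. Same-numbered arrays correlated in their deviations from group means with r from 0.00033 to 0.22. Of these 4 pairs, 2 had r above 0.1, and 2 of 4 mutants correlated best with their own number. With the replicate block, Eomes, Spp1, Nefl and Calb2 had adjusted p of 0.174, 0.145, 0.299 and 0.489.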
